A study of Mus musculus with 19 samples.

Results

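Interferon-stimulated genes are the genes that cells switch on when an interferon binds its receptor at the cell surface. A list of 36 of them was followed through the expression arrays of this study, and 34 were measured among the 18193 genes that the arrays represent. Each gene was read by the probe set with the highest mean log2 signal in the tissue. Isg15, a ubiquitin-like protein, was present only on a probe set assigned to several genes, and Ifi44 was not matched, so neither has a value here. The arrays were made from total RNA of pancreatic lymph nodes (PLNs) and fat of female NOD (NOD/LtJx) mice, an inbred strain that develops autoimmune diabetes spontaneously. In PLNs there were 4 arrays of normoglycemic mice (NOR), 2 of mice with new onset diabetes (DIA) and 4 of diabetic mice treated with alpha 1 antitrypsin (AAT), a circulating protease inhibitor with anti-inflammatory effects. In fat there were 2 NOR, 2 DIA and 2 AAT arrays, and 3 arrays of diabetic mice treated with Power Mix (PM), which combines IL2.Ig, a mutant antagonist-type IL15.Ig and rapamycin. The labels give no ages and do not say whether arrays of a group came from separate mice, so p-values measure the spread between arrays only. The labels of every sample also carry a streptozotocin protocol, which concerns mice treated with anti-TNF-α and not the groups described here.

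Interferons alpha and beta act through the receptor chains Ifnar1 and Ifnar2, and interferon gamma through Ifngr1 and Ifngr2. Both receptors signal through Janus kinases to transcription factors, which bind short promoter elements known as the interferon-stimulated response element (ISRE) and the gamma-activated site (GAS). In autoimmune diabetes, interferon-stimulated genes are known from inflamed islets and their draining lymph nodes.

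The tissue labels were checked against marker genes. The summed signal of 8 measured adipocyte markers was 195250 to 466910 on fat arrays and 2981 to 29526 on PLN arrays, with the higher PLN values in the AAT group. T cell markers summed to 19252 to 37607 in PLNs and to 1904 to 5110 in fat. Other features moved with the groups. In fat the macrophage and monocyte markers summed to 14482 and 30121 in DIA against 8291 and 8801 in NOR, and the ratio of 3′ to 5′ actin probe sets, a sign of RNA degradation, was 15.2 and 15.5 in DIA against 3.62 and 4.30 in NOR. In PLNs the 3′ to 5′ ratio of Gapdh was 10.02 and 10.8 in DIA, 5.55 to 8.01 in NOR and 7.43 to 25.0 in AAT, while the actin ratio was 0.88 and 1.10 in DIA and 0.94 to 2.31 in NOR. The acinar markers, which come from exocrine pancreas, reached 309210 in AAT, 16276 in DIA and 2725 in NOR, and the macrophage and monocyte markers summed to 56753 to 103770 in AAT against 34685 to 55702 in NOR. In fat the erythroid and platelet markers summed to 3122 and 3815 in DIA against 9380 and 12815 in NOR. The part of the marker genes in the results was not tested. The actin ratio in fat and the Gapdh ratio in PLNs were each tried as a covariate, and 2 of the 4 calls in diabetic fat had the opposite sign with it. Because whole tissue was measured, fewer cells of a type and less RNA per cell cannot be told apart. The median log2 change of all genes was -0.15 from NOR to DIA and -0.32 from DIA to AAT in PLNs, and -0.11, 0.00 and 0.11 in fat for DIA against NOR, AAT against DIA and PM against DIA. Changes are therefore given on the log2 scale relative to the median of all genes.

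The promoters of several members carry the ISRE or the GAS. RefSeq promoter sequence (build GRCm38.p6, the 250 bases before the gene start) was at hand for 24 of the 34 measured members. The ISRE, searched as GAAANNGAAA on both strands, lay in 11 of them and the GAS, searched as TTCNNNGAA, in 7, with both in 3 and neither in 9. These are counts of genes, and a gene can have several promoters. Counted by promoter, 40% of the 30 promoters of listed members, measured or not, held the ISRE and 23.3% the GAS. Over all promoters of this length, 2.98% held the ISRE and 7.02% the GAS. The stretches around the ISRE are shown for Ifit1 and Ifit3, which were lower in diabetic PLNs, for Gbp3, which was higher in diabetic fat, and for Rsad2 and Igtp, whose signals are given array by array below. They are written 5′ to 3′ on the strand of the gene, with the ISRE in capitals, reading GAAANNGAAA or its reverse complement. They lie at chr19:34640765-34640833 on the plus strand (Ifit1), chr19:34583353-34583436 on the plus strand (Ifit3), chr12:26456543-26456592 on the minus strand (Rsad2), chr3:142559979-142560034 on the plus strand (Gbp3) and chr11:58199502-58199551 on the plus strand (Igtp).
Ifit1: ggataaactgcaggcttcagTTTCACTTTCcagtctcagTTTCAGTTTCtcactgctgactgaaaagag
Ifit3: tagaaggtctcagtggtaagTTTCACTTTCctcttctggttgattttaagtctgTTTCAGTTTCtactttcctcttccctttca
Rsad2: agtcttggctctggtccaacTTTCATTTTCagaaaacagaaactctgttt
Gbp3: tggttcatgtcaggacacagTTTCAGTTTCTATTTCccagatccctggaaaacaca
Igtp: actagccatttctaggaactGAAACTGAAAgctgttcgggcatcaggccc
Ifit1 and Ifit3 each held 2 separate copies, and in Gbp3 2 copies overlapped. Ifit2, the neighbour of both Ifit genes on chromosome 19, had no ISRE in the promoter sequences at hand, and a GAS in 1 of them. From NOR to DIA in PLNs the median change was -0.24 over the 11 members with an ISRE and -0.34 over the 13 without an ISRE, a description with no test.

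The first question was how the members differed between diabetic and normoglycemic PLNs. In DIA, 26 of the 34 members lay below the median change of all genes and 8 above it, with a median of -0.33 and a range of -3.05 to 0.90. At the thresholds used for this series, a fold change above 2 with an unadjusted p of at most 0.05, 5 members were lower and 0 were higher, while 7.83% of all genes were lower and 2.19% were higher. The 5 were Ifit1, Ifit2, Ifit3, Rtp4 and Ifi204. None had an adjusted p under 0.05 in limma (0.033% of all genes had), and the same 5 had an unadjusted p under 0.05 (10.3% of all genes). With rank product p-values in place of those of limma, 4 members were lower (6.26% of all genes) and 0 higher (4.28%). Both DIA arrays lay below all 4 NOR arrays for 8 members, Ifit2, Ifit3, Rtp4, Ifi204, Mx1, Mx2, Parp14 and Xaf1, and 14.5% of all genes were lower in this way.

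All 3 measured IFIT genes, whose proteins bind foreign RNA and block its translation, were among the 5. The Ifit1 signal was 275, 1540, 152 and 269 on the NOR arrays, 9.73 and 167 on the DIA arrays, and 273, 152, 426 and 1595 on the AAT arrays. The DIA 1 array was by far the lowest, and DIA 2 lay within the range of both other groups. The change was -3.02 from NOR to DIA (SE 1.08, adjusted p = 0.303) and 3.67 from DIA to AAT (SE 1.08, adjusted p = 0.167). Ifit2 gave 564, 1292, 860 and 943 in NOR, 102 and 409 in DIA, and 732, 646, 329 and 1990 in AAT. Both DIA values were below every NOR value, while AAT 3 was below DIA 2. Its change was -1.95 from NOR to DIA (SE 0.67, adjusted p = 0.270) and 2.19 from DIA to AAT (adjusted p = 0.196). Ifit3 gave 823, 1687, 358 and 565 in NOR, 81.7 and 259 in DIA, and 598, 389, 188 and 964 in AAT. DIA and NOR did not overlap, and AAT 3 again fell between the DIA arrays. The changes were -2.17 (SE 0.73, adjusted p = 0.262) and 1.96 (adjusted p = 0.265), and the second did not pass the thresholds without AAT 1 or without AAT 4. Nor did the second pass with the 3′ to 5′ ratio of Gapdh as a covariate, with only the 2 groups in the fit or with no intensity trend.

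The remaining members past the thresholds were antiviral effectors. Rtp4, a chaperone of receptor proteins that also restrains viral replication, gave 724, 1451, 624 and 1096 in NOR, 129 and 423 in DIA, and 1817, 512, 1032 and 1071 in AAT. Its DIA arrays lay below all arrays of both other groups. The changes were -1.83 (SE 0.59, adjusted p = 0.243) and 2.42 (adjusted p = 0.129). A second probe set of Rtp4, with a lower mean signal, changed by -1.03 (adjusted p = 0.5998) and -0.16 (adjusted p = 0.739) and passed in neither comparison. Both differences of Rtp4 thus passed the thresholds with 1 of its 2 probe sets. Ifi204, a DNA-binding protein of the innate immune system, gave 189, 275, 127 and 233 in NOR, 7.76 and 60.1 in DIA, and 333, 82.2, 75.0 and 414 in AAT. Both DIA values were below all others, but AAT 2 and AAT 3 were close to DIA 2. Its changes were -3.05 (SE 1.02, adjusted p = 0.270) and 3.30 (adjusted p = 0.184), and neither passed the thresholds once signals under the 20th percentile of an array were raised to it. Probe sets of Ifi204 can share sequence with its near-identical neighbours of the Ifi200 family, so its values are uncertain in that respect.

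**Figure D1:**
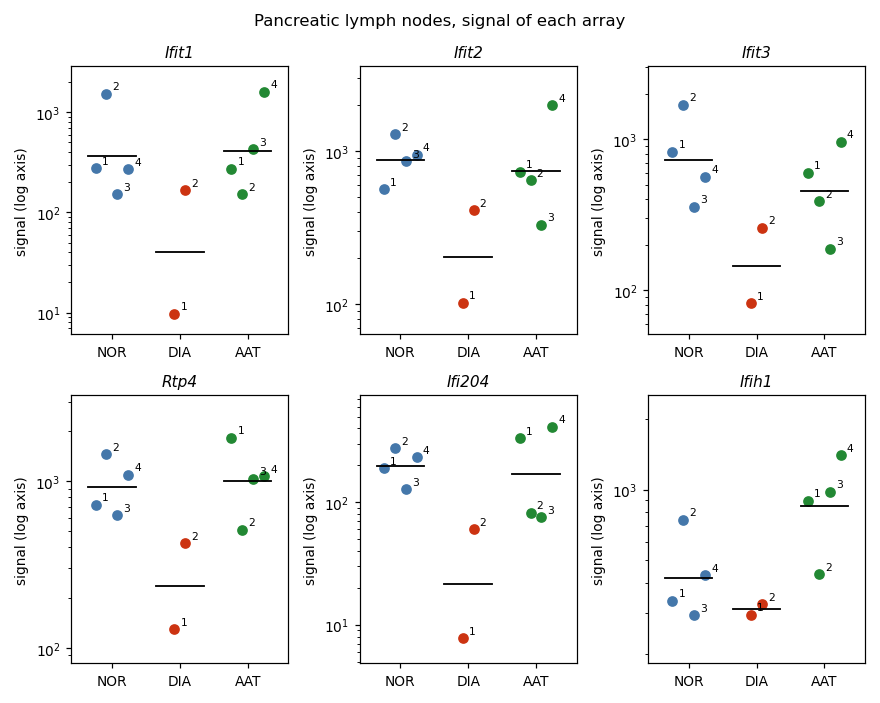
Signal of 6 members on each PLN array (vertical log axes, arbitrary units), with points numbered by array and a black line at the geometric mean of each group. For Ifit1, Ifit2, Ifit3, Rtp4 and Ifi204 the DIA 1 array is the lowest of all 10 arrays, and DIA 2 lies nearer to the other groups.

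These values depended on the DIA 1 array. Without it, 0 of the 5 members passed the thresholds in DIA against NOR, with changes of -0.78 for Ifit1, -0.76 for Ifit2, -1.15 for Ifit3, -0.78 for Rtp4 and -1.38 for Ifi204. Other members were then lower, with changes of -2.70 for Oas2, -1.51 for Mx1 and -1.50 for Oasl2. In that fit 18 of 34 members lay below the all-gene median, with a median of -0.07. Without DIA 2, 27 of 34 members lay below the all-gene median, with a median of -0.70. Without NOR 2, which had the highest level of the members, the 5 remained, and 20 of 34 members lay below the all-gene median with a median of -0.14. These calls stand without the share of all genes called under the same setting and are not by themselves a result about the members. Oas2, an enzyme that makes the activator of RNase L, shows how the DIA arrays differed between themselves: it gave 302, 306, 140 and 261 in NOR but 284 and 29.4 in DIA, the low value being that of DIA 2.

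Rsad2 (viperin), which makes a chain-terminating nucleotide from CTP, gave 255, 1069, 217 and 614 in NOR, 43.9 and 417 in DIA, and 226, 411, 375 and 1049 in AAT. Only DIA 1 lay outside the other groups. Its changes of -1.54 (SE 0.85, adjusted p = 0.530) and 2.01 (adjusted p = 0.317) did not pass, and its 2 other probe sets, with lower mean signals, gave 1.14 and 0.39 from NOR to DIA and -0.39 and -1.77 from DIA to AAT. It is described here because it is the partner of Cmpk2 in the genome and in function. Cmpk2, the kinase that supplies the CTP, changed by -0.34 and 0.61.

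The Mx GTPases, which trap viral nucleoproteins, were lower on both DIA arrays than on any NOR array, by little on DIA 1. They did not pass the thresholds. Mx1 gave 463, 718, 660 and 675 in NOR, 421 and 172 in DIA, and 342, 245, 255 and 585 in AAT. The NOR arrays were above all DIA arrays, and the AAT and DIA arrays overlapped. Its change was -1.06 (SE 0.59, adjusted p = 0.511), with 0.63 from DIA to AAT (adjusted p = 0.808). Mx2 signals were near the bottom of the scale, at 30.4, 131, 11.9 and 11.9 in NOR and 11.1 and 7.72 in DIA, and its 2 groups were barely apart. Parp14, an ADP-ribosyltransferase, gave 3626, 5969, 4687 and 5368 in NOR, 2297 and 3233 in DIA, and 2840, 3498, 4193 and 5329 in AAT. Its change of -0.68 (SE 0.41, adjusted p = 0.516) was under 2-fold, with no overlap between NOR and DIA. Xaf1, a pro-apoptotic protein, gave 611, 1288, 558 and 562 in NOR and 286 and 496 in DIA, a change of -0.75 (adjusted p = 0.615).

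The members did not move as a block. In the OAS family, 4 of 5 were below the all-gene median, with a range of -1.25 for Oas2 to 0.90 for Oas1a, and 0 passed. Of the 4 transcription factors that carry the interferon signal, Irf7 changed by -0.69 and Irf1 by -0.02, while Irf9 changed by 0.27 and Stat2 by 0.65, and none passed. The sensors of viral RNA were at -0.30 (Ifih1, also called MDA5) and 0.72 (Dhx58, also called LGP2). The GBP and IRG GTPases, which attack the vacuoles of intracellular pathogens and respond strongly to interferon gamma, ranged from -0.75 (Iigp1) to 0.10 (Gbp2), and the genes of antigen processing from -0.34 (Tap1, a subunit of the peptide transporter) to 0.28 (Psmb8, a subunit of the immunoproteasome).

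**Figure D2:**
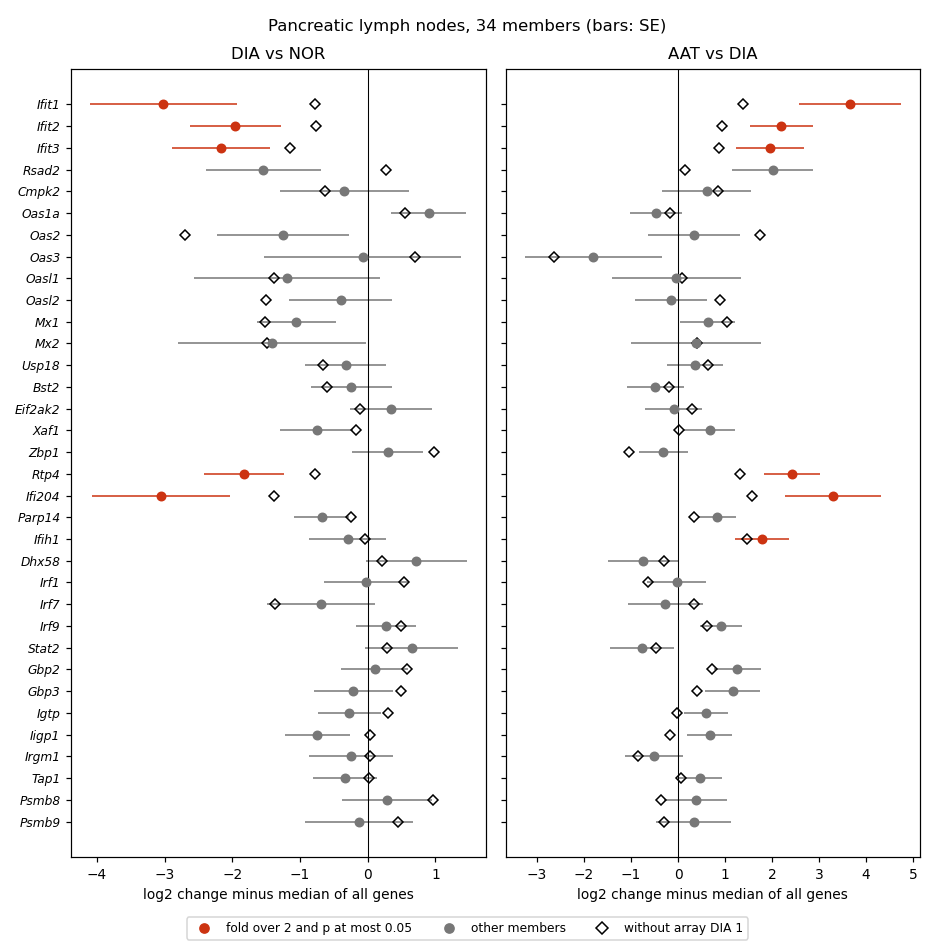
Change of each of the 34 members in PLNs relative to the median of all genes (log2), for DIA against NOR on the left and AAT against DIA on the right, with bars of 1 SE. Red points are members past the thresholds, and open diamonds are the change without the DIA 1 array. The 5 members lowest in DIA are also high in AAT against DIA, and their diamonds lie closer to 0 in both.

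The second question was whether AAT treatment moved the members back. From DIA to AAT, 22 of the 34 members lay above the all-gene median and 12 below, with a median of 0.43. At the thresholds 6 members were higher and 0 lower, while 7.59% of all genes were higher and 8.57% lower. None had an adjusted p under 0.05 in limma (0.203% of all genes had), and 6 had an unadjusted p under 0.05 (16.6% of all genes). Rank product p-values also gave 6 members higher (6.95% of all genes) and 0 lower (4.42%). The 6 were Ifit1, Ifit2, Ifit3, Rtp4 and Ifi204, and also Ifih1. The first 5 were the members lower in DIA, but both comparisons use the same 2 DIA arrays, so a low DIA array gives a change of opposite sign in each. Without DIA 1, 0 of the 6 passed, although 22 members were still above the all-gene median, with a median of 0.31. When the array medians were set equal, 10 members were higher and the split of all genes moved to 3090 higher and 384 lower, from 1381 higher and 1559 lower.

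Ifih1, the cytoplasmic sensor of long double-stranded RNA, did not pass the thresholds in DIA against NOR (-0.30). It gave 337, 742, 293 and 432 in NOR, 293 and 326 in DIA, and 894, 437, 976 and 1396 in AAT. The DIA values were near the lowest NOR value, all AAT arrays were above both DIA arrays, and 3 of the 4 were above every NOR array. Its change was 1.79 from DIA to AAT (SE 0.57, adjusted p = 0.221) and 1.53 from NOR to AAT (SE 0.47, adjusted p = 0.184). Without DIA 1 its change from DIA to AAT was 1.46 and did not pass the thresholds, nor did it pass without AAT 4.

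Against NOR, the AAT arrays had 3 members lower and 1 higher at the thresholds, while 15.7% of all genes were lower and 5.01% higher. The lower members were Bst2 (tetherin, which holds budding virions at the cell surface), Irgm1 (a regulator of the IRG GTPases) and Irf7 (the main inducer of interferon alpha genes). The Bst2 signal was 723, 1551, 889 and 584 in NOR and 410, 805, 325 and 197 in AAT, and the groups overlapped. Irf7 gave 412, 625, 160 and 225 in NOR and 184, 120, 74.8 and 106 in AAT, also with an overlap. Irgm1 gave 283, 768, 711 and 502 in NOR and 287, 184, 135 and 359 in AAT, with AAT 1 and AAT 4 above the lowest NOR array. Relative to all genes, whose median change was -0.51 in this comparison, the changes were -0.69 for Bst2, -0.72 for Irgm1 and -0.92 for Irf7, all below a 2-fold change. The IFIT genes in AAT lay at -0.18 to 0.68 against NOR, and Rtp4 and Ifi204 did not pass.

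A few of the members with high signals in PLNs varied far more within groups than between them. Psmb9, a catalytic subunit of the immunoproteasome, gave 1701, 10491, 5196 and 1739 in NOR, 2258 and 3824 in DIA, and 988, 13043, 3531 and 1698 in AAT. The NOR 2 and AAT 2 arrays were the highest, and the lowest and the highest arrays of all were both of the AAT group. Psmb8 followed with 1924, 6390, 5828 and 2342 in NOR, 2805 and 5546 in DIA, and 1682, 12721, 5676 and 2313 in AAT. Irf1, the transcription factor that drives the immunoproteasome genes in response to interferon gamma, gave 1567, 5216, 3237 and 1633 in NOR, 1753 and 2953 in DIA, and 870, 5838, 1506 and 1352 in AAT. All 3 were high on the same NOR and AAT arrays. Igtp, a GTPase of the IRG family, varied less, with 2253, 6267, 4181 and 3167 in NOR, 2116 and 3605 in DIA, and 3497, 3903, 2049 and 4529 in AAT.

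The level of all members on an array, taken as the median deviation of the 34 from their tissue means minus that of all genes, gave the same picture. In PLNs it was -0.56, 0.90, -0.12 and -0.17 in NOR, -0.72 and -0.11 in DIA, and -0.32, 0.04, -0.11 and 0.54 in AAT. DIA 1 was the lowest array and NOR 2 the highest. NOR 1 and NOR 4 lay between the DIA arrays, and NOR 3 and AAT 3 were level with DIA 2. In fat it was -0.40 and -0.22 in NOR, -0.26 and 0.10 in DIA, 0.21 and 0.32 in AAT, and 0.06, 0.17 and 0.08 in PM. The AAT and PM arrays of fat were thus above both NOR arrays, and the DIA arrays covered a range from the NOR to the PM values.

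**Figure D3:**
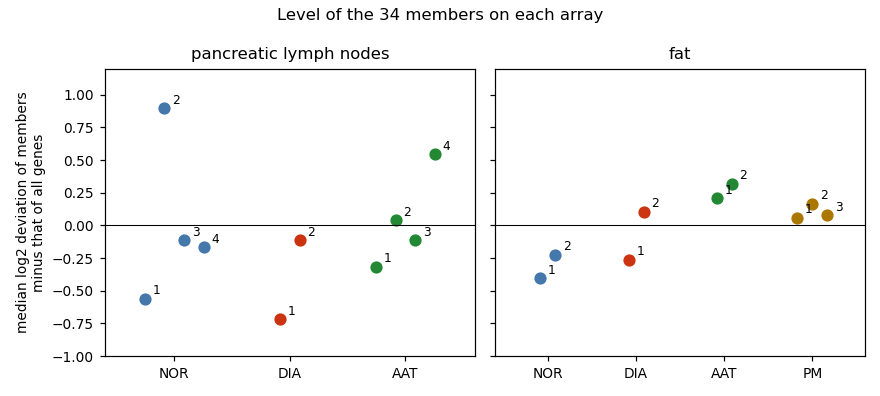
Level of the 34 members on each array (log2), as the median deviation of the members from their mean over the tissue minus the same for all genes, with points numbered by array. The PLN groups overlap, from -0.72 on DIA 1 to 0.90 on NOR 2. In fat the NOR arrays lie at -0.40 and -0.22 and all AAT and PM arrays above 0.

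In fat more members lay above the all-gene median than below it. In DIA against NOR, 21 of 34 were above it and 13 below, with a median of 0.19 and a range of -0.85 to 2.25. Without NOR 1, 18 were above and 16 below, and the median was 0.086 without DIA 2, 0.35 without DIA 1 and 0.36 without NOR 2. At the thresholds 4 members were higher, Oas2, Iigp1, Gbp3 and Tap1, and 0 were lower, while 3.24% of all genes were higher and 3.62% lower. None had an adjusted p under 0.05 in limma (0% of all genes had), and 4 had an unadjusted p under 0.05 (8.84% of all genes). With rank product p-values 2 members were higher (3.72% of all genes).

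Oas2 gave 208 and 95.7 in NOR, 405 and 946 in DIA, 582 and 606 in AAT, and 444, 527 and 435 in PM. Every array of the 3 other groups was above both NOR arrays. The change was 2.25 from NOR to DIA (SE 0.53, adjusted p = 0.417), and 18 of 18 alternative settings kept it past the thresholds. Some of these settings left out AAT or PM arrays, which cannot move this change. Iigp1, a GTPase that lines the vacuoles of parasites, gave 1372 and 1800 in NOR, 3462 and 4633 in DIA, 2981 and 2315 in AAT, and 3051, 1849 and 2702 in PM. The DIA arrays were above all other arrays and the NOR arrays below all others. Its change was 1.46 from NOR to DIA (SE 0.34, adjusted p = 0.417), then -0.61 from DIA to AAT (adjusted p = 1.00) and -0.81 from DIA to PM (SE 0.31, adjusted p = 0.511, under a 2-fold change). Its other probe set gave 0.93 (adjusted p = 0.614) from NOR to DIA.

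Gbp3, a guanylate-binding GTPase, gave 378 and 507 in NOR, 790 and 1338 in DIA, 883 and 1138 in AAT, and 894, 971 and 641 in PM. The NOR arrays were the lowest, and the DIA, AAT and PM arrays overlapped. Its change from NOR to DIA was 1.34 (SE 0.39, adjusted p = 0.438), and it did not pass the thresholds without NOR 1 or without DIA 2. Tap1 gave 60.4 and 381 in NOR, 484 and 735 in DIA, 737 and 549 in AAT, and 925, 228 and 664 in PM. The low NOR 1 value carried much of its change of 2.09 (SE 0.82, adjusted p = 0.521), and PM 2 lay below NOR 2. Tap1 passed in 10 of 20 alternative settings. Its other probe sets, all with lower mean signals, gave -0.66, -0.17 and 2.39 from NOR to DIA, and none passed. With the 3′ to 5′ ratio of actin as a covariate, the changes of Tap1 (-2.35) and Iigp1 (-0.45) had the opposite sign and did not pass, and that ratio was far apart in the DIA and NOR arrays.

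**Figure D4:**
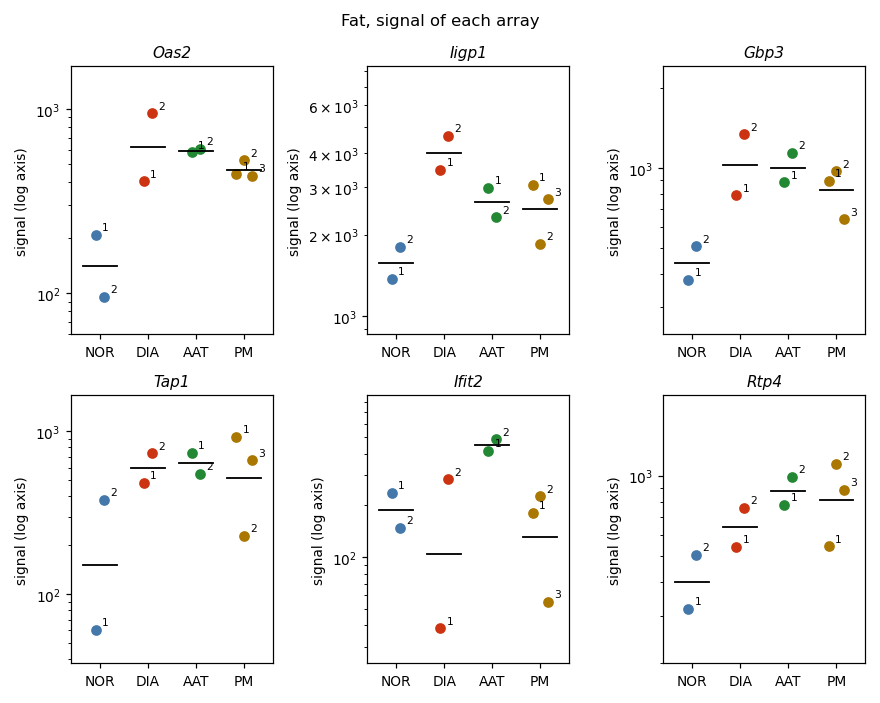
Signal of 6 members on each fat array (vertical log axes, arbitrary units), with points numbered by array and a black line at the geometric mean of each group. Oas2 and Gbp3 are above both NOR arrays on all DIA, AAT and PM arrays, Iigp1 is highest in DIA, and the Ifit2 values of DIA, 38.5 and 284, lie on both sides of the NOR values.

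Read by the probe set with the highest mean signal, no member passed the thresholds between treated and diabetic fat. In AAT against DIA, 27 of 34 lay above the all-gene median with a median of 0.27, and 0 passed in either direction, while 2.1% of all genes were higher and 1.62% lower. In PM against DIA, 23 of 34 lay above it with a median of 0.11, and again 0 passed, while 4.09% of all genes were higher and 3.09% lower. None had an adjusted p under 0.05 in limma in either comparison (0% of all genes in both). At an unadjusted p under 0.05 there were 0 members in AAT against DIA (5.01% of all genes) and 1 in PM against DIA, Iigp1 (10.2% of all genes), and rank product p-values called 1 member higher with AAT (4.17% of all genes) and 1 lower with PM (4.34%). Both medians depended on the DIA arrays. Without DIA 1, 19 of 34 members lay above the all-gene median with AAT (median 0.055) and 15 of 34 with PM (median -0.020), and without DIA 2 the medians were 0.42 and 0.41. Ifit2 had the largest difference between AAT and DIA, from 38.5 and 284 in DIA to 415 and 486 in AAT, against 237 and 148 in NOR and 180, 226 and 54.6 in PM. Its 2 DIA arrays were far apart, and its change of 2.10 (SE 0.98, adjusted p = 1.00) did not pass.

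Against NOR, both treated groups of fat had members higher. With AAT these were 5, Oas2 (2.16), Gbp3 (1.28), Rtp4 (1.21), Tap1 (2.16) and Oasl2 (1.09), while 2.42% of all genes were higher. With PM they were 4, Oas2 (1.74), Rtp4 (1.02), Tap1 (1.79) and Igtp (1.03), while 1.72% of all genes were higher. These comparisons and DIA against NOR share the same 2 NOR arrays. Rtp4 gave 319 and 507 in NOR, 543 and 757 in DIA, 778 and 989 in AAT, and 544, 1108 and 884 in PM. Its NOR arrays were below every other array, and its change from NOR to DIA was 0.79 (adjusted p = 0.676). Oasl2, a member of the OAS family, gave 654 and 444 in NOR, 836 and 650 in DIA, 782 and 1488 in AAT, and 686, 1045 and 563 in PM. Its AAT arrays were above both NOR arrays and its PM arrays overlapped them. Igtp gave 720 and 688 in NOR, 435 and 1319 in DIA, 1721 and 1112 in AAT, and 1229, 1271 and 1851 in PM, so that the treated arrays were above NOR while the DIA arrays lay on both sides of it. The adjusted p-values of these members against NOR were 0.908 or more.

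The members with the highest signals in fat showed no difference between groups at the thresholds, apart from Iigp1. Irf1 gave 2213 and 2211 in NOR, 1787 and 1897 in DIA, 2328 and 2599 in AAT, and 1946, 2465 and 2677 in PM. Its DIA arrays were the lowest of the 9, with a change of -0.15 (adjusted p = 0.814). Gbp2 gave 1622 and 1596 in NOR, 1059 and 1803 in DIA, 1936 and 2506 in AAT, and 2040, 2184 and 1982 in PM. Its AAT and PM arrays were all above the NOR and DIA arrays, with changes from DIA of 0.67 (adjusted p = 1.00) and 0.47 (adjusted p = 0.555). Its other probe set gave 0.34 with AAT and -0.21 with PM. Psmb8 gave 1061 and 1684 in NOR and 1326 to 2190 on the other arrays.

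Rsad2 in fat was read differently by its 3 probe sets. The probe set with the highest mean signal gave 2356 and 5388 in NOR, 4547 and 2235 in DIA, 5490 and 2587 in AAT, and 3829, 2982 and 4453 in PM. Replicates differed by more than the groups did, and its change from NOR to DIA was -0.05 (adjusted p = 0.946). The probe set with the lowest mean signal changed by -1.92 from NOR to DIA (SE 0.53, adjusted p = 0.417), by 1.69 from DIA to AAT (adjusted p = 1.00) and by 1.51 from DIA to PM (adjusted p = 0.398). That probe set passed the thresholds in each of these comparisons, with unadjusted limma p-values of 0.0026, 0.0081 and 0.0062. The paper lists Rsad2 as lower in diabetic fat and higher with both treatments. The remaining probe set gave -0.54, 0.80 and 0.53.

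The change with diabetes was compared between the tissues in a model over all 19 arrays. The difference of the changes, fat minus PLNs, was above the all-gene median for 26 of 34 members. It had an unadjusted p under 0.05 for 7 members, while 8.78% of all genes had, and an adjusted p under 0.05 for 0, while 0.011% of all genes had. The 7 were Iigp1 (2.12 relative to all genes, SE 0.65, adjusted p = 0.305), Rtp4 (2.52, adjusted p = 0.343), Ifit3 (2.82), Oas2 (3.40), Ifi204 (3.33), Tap1 (2.33) and Ifit1 (3.36), each with a change below the all-gene median in PLNs and above it in fat. These differences use the same 2 DIA arrays of PLNs and were not recomputed without DIA 1. For the change with AAT the difference was above the all-gene median for 17 of 34 members. There 2 members, Ifih1 and Ifit1, had an unadjusted p under 0.05 (8.69% of all genes) and 0 an adjusted p under 0.05 (0% of all genes).

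**Figure D5:**
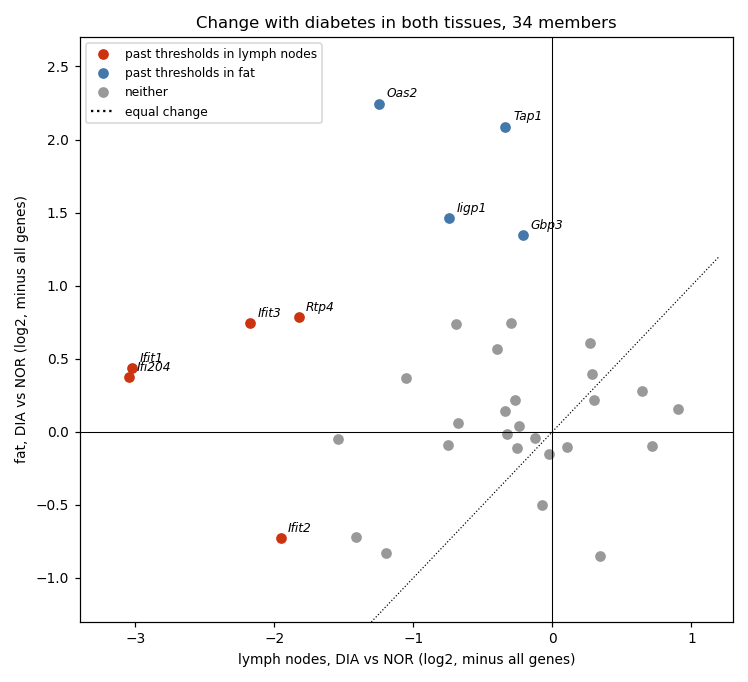
Change from NOR to DIA of each of the 34 members in PLNs (horizontal axis) and fat (vertical axis), both log2 relative to all genes, with red for members past the thresholds in PLNs, blue for those past them in fat and a dotted line of equal change. The red points are at -1.83 or lower in PLNs, and the blue points are at 1.34 or higher in fat and below 0 in PLNs.

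The upstream parts of the pathway were examined with lists of other genes. Of 10 measured interferon ligands, 2 were lower in DIA PLNs at the thresholds, Ifna11 (adjusted p = 0.243, with a mean log2 signal of 3.30 in DIA, too close to the bottom of the scale to give a size) and Ifnz (-1.52, adjusted p = 0.415), and 0 were higher, beside 7.83% and 2.19% of all genes, and Ifnz did not pass without DIA 1. Interferon alpha genes are near-identical, so probe sets cannot be assigned to single ones with certainty, and the summed signal of the list was low, at 1397 to 3954 in NOR, 691 and 1788 in DIA and 276 to 1487 in AAT. None of the 6 receptor genes passed in DIA against NOR in either tissue, with a median of 0.29 in PLNs and 0.25 in fat. Of all genes, 7.83% were lower and 2.19% higher in PLNs, and 3.62% lower and 3.24% higher in fat. In PLNs the receptor chain Il10rb, shared by the interleukin 10 and lambda interferon receptors, was lower with AAT than in DIA (-1.39, adjusted p = 0.121).

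Genes of the signalling and sensing lists also passed in PLNs. Irf2, a repressor that competes with Irf1, was lower in DIA (-1.37, adjusted p = 0.319) and higher with AAT (1.64, adjusted p = 0.232). It was the only 1 of 7 signalling genes past the thresholds in DIA, beside 7.83% of all genes lower and 2.19% higher. The kinase Jak2 was also higher with AAT than in DIA (1.35, adjusted p = 0.259), beside 7.59% of all genes. Without DIA 1, Irf2 did not pass in either comparison, and Jak2 did not pass in AAT against DIA. Of 10 sensing genes, 3 were lower and 1 higher in DIA, beside 7.83% and 2.19% of all genes. The lower were the endosomal receptor of double-stranded RNA Tlr3 (-2.14, SE 0.50, adjusted p = 0.106), Mavs (-1.67, adjusted p = 0.335), the adaptor of the RNA sensors, and the kinase Tbk1 (-1.13, adjusted p = 0.452), and the higher was Aim2 (1.83, adjusted p = 0.217), a sensor of cytoplasmic DNA. From DIA to AAT, Tlr3 (2.74, adjusted p = 0.0701), Mavs (3.05, adjusted p = 0.0919) and Tbk1 (1.70, adjusted p = 0.233) were higher. Both comparisons use the same 2 DIA arrays. Without DIA 1, Tlr3 was still lower in DIA (-1.08) and higher with AAT (1.62), Aim2 was still higher in DIA and Mavs still higher with AAT (1.67), while Mavs in DIA (-0.34) and Tbk1 in both (-0.37 and 0.89) did not pass. Of 7 brakes on the pathway, 0 passed in DIA against NOR, beside 7.83% of all genes lower and 2.19% higher. Socs3, an inhibitor of Janus kinases, was higher with AAT than in DIA (2.12, SE 0.46, adjusted p = 0.105), beside 7.59% of all genes.

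A further 46 interferon-stimulated genes outside the 34 gave 8 lower and 1 higher in DIA PLNs and a median of -0.09, beside 7.83% of all genes lower and 2.19% higher. Without DIA 1, 2 of the 8 were still lower, Ly6e and Cxcl10, and Epsti1 was still higher. Ly6e (-2.72, adjusted p = 0.137), a membrane protein that restricts coronaviruses, Cxcl10 (-1.86, adjusted p = 0.214), a chemokine that attracts T cells, and Pml (-1.70, adjusted p = 0.232), which builds nuclear bodies, were among the lower, and Epsti1 (2.00, adjusted p = 0.134) was the higher. From DIA to AAT, 4 of the 46 were higher and 2 lower, beside 7.59% and 8.57% of all genes, and without DIA 1 the only gene still past the thresholds was Sp100, which was lower. In fat 4 were higher and 3 lower in DIA, beside 3.24% and 3.62% of all genes, and the exonuclease Isg20 was lower in DIA (-1.33, SE 0.32) and higher with AAT (1.42) and PM (1.19), with adjusted p-values of 0.388, 0.859 and 0.317. Of 8 measured markers of plasmacytoid dendritic cells, which make much interferon alpha, 6 lay above the all-gene median in DIA PLNs and 2 below. The 2 below, Siglech (-1.32) and Ccr9 (-1.12), had both DIA arrays under all NOR arrays, beside 14.5% of all genes. Siglech passed the thresholds as lower, beside 7.83% of all genes. Spib (1.13) and Klk1 (0.68) had both DIA arrays over all NOR arrays, beside 7.47% of all genes. Ly6d (1.51) and Tcf4 (0.95) were above the all-gene median with overlapping arrays. B cells also express Tcf4 and Spib.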

How the data were processed

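The authors hybridised total RNA to Affymetrix Mouse 430 2.0 arrays and deposited signal intensities on a linear scale, made with MAS5 per the submitters' processing notes (version not given) and scaled per array (trimmed means of 495 to 498). The RMA values described in the study's methods were not used here, and no genome build is needed for these signals. Signals below 1 were set to 1 and log2 transformed, and 64 control probe sets were left out. Of 45037 probe sets, 34945 name 1 gene, 932 several and 9160 none, and the symbols of 34741 were matched through Entrez identifiers. Of the members 21 had 1 probe set and 13 several. limma (version 3.58.1, R 4.3.3) was fitted per tissue over all groups with an intensity trend, and p-values were adjusted by Benjamini-Hochberg over all probe sets. Thresholds are a fold change above 2 as measured and an unadjusted p of at most 0.05. The members and gene lists were chosen with earlier results of these data known. Members past the thresholds and the 5 with the highest mean signal per tissue are given array by array. Other lists are given by count with at most 4 names of smallest p, apart from the plasmacytoid dendritic cell markers. Mx1, Mx2, Xaf1, Rsad2 and Oas2 in PLNs and Ifit2 in fat were added after their values were seen. Signals of different probe sets are not comparable. Alternatives, among them other fits, normalizations, floors, filters, probe sets, rank products (100 permutations), the 3′ to 5′ ratio of actin (fat) or Gapdh (PLNs) as a covariate and leaving out each array, are in the closing section. The small number of arrays limits the precision, with a median SE of 0.96 in PLNs and 0.78 in fat for DIA against NOR.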

Additional observations from a re-analysis of the deposited data

Results flagged for a closer look

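Xaf1 in PLNs had a NOR 2 signal of 1288, a log2 signal of 10.33 against 9.26 on the next array. Its gap to the next array was 0.891 of the range of the 4 NOR arrays, above the 95% critical value of Dixon's test. It was the only value so marked among 68 groups of 4 arrays, of which chance would mark about 1 in 20. NOR 2 was also the array with the highest level of the members as a whole.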

How the results depend on the processing

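With 2 DIA arrays per tissue, single arrays decided most calls. The counts in this section stand without the share of all genes called under the same setting. They are not by themselves a result about the members. Some settings left out arrays of groups outside the comparison, which cannot move the estimated change and can alter only its p-value. The number of changes that stayed past the thresholds includes these settings. Of 289 recomputed changes of the members past the thresholds, 253 stayed past them in the same direction, 33 did not pass and 3 reversed: Rtp4 from DIA to AAT in PLNs with its other probe set (below 0 as measured, but 0.089 relative to all genes when every gene with several probe sets is read by its second), and Iigp1 (-0.45) and Tap1 (-2.35) from NOR to DIA in fat with the 3′ to 5′ covariate. Leaving out each array gave 3 to 8 members lower in DIA PLNs, 0 to 7 higher and 0 to 1 lower with AAT, 2 to 5 higher in DIA fat, 0 to 4 higher with AAT in fat, and 0 to 1 higher and 0 to 1 lower with PM. The medians then ranged from -0.70 to -0.07 (DIA, PLNs), 0.31 to 0.85 (AAT, PLNs), 0.086 to 0.36 (DIA, fat), 0.055 to 0.42 (AAT, fat) and -0.020 to 0.41 (PM, fat).

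With the 3′ to 5′ covariate, 8 members were lower in DIA PLNs, 7 were higher and 1 lower in DIA fat (median 0.51), 1 higher and 3 lower with AAT in fat (median 0.057), and 2 higher and 4 lower with PM (median -0.18). Equal array medians gave 10 members higher with AAT in PLNs, where more of all genes were then called higher too. The second probe set of each gene gave 2 members higher in DIA fat, with a median of 0.41. Rank product p-values gave 2 higher in DIA fat, 1 higher with AAT in fat and 1 lower with PM. AAT against DIA in fat had 1 member higher with only its 2 groups and with the mean over probe sets. For PM the median was 0.26 with quantile normalization and 0.25 without genes under the 40th percentile. The cause of these differences was not tested.

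Replicate numbers were not taken to pair the arrays, since not every same-numbered pair correlated above 0.1: such arrays correlated in their deviations at -0.04 to 0.28 in PLNs and -0.26 to 0.29 in fat, against -0.28 to 0.28 and -0.29 to 0.26 for others. In PLNs the 6 pairs numbered 1 or 2 lay at 0.17 to 0.28, which comes from the data and not from the design. In a group of 2 arrays the deviations mirror each other, so correlations with its 2 arrays differ only in sign. The 6 pairs are therefore not separate observations, and in fat the 2 ranges mirror each other. These correlations cannot decide whether the numbers pair the arrays. A replicate block gave 6 members lower in DIA PLNs, 7 higher with AAT, 3 higher in DIA fat and 1 higher with AAT in fat (Ifit2).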
